A study of Mus musculus with 8 samples.

Results

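The comparison of TCDD with its solvent in wild-type mice rested on 4 of the 8 arrays of the series, chosen by their titles: 2 arrays of CD4 T cells from wild-type (WT) mice given TCDD and 2 from WT mice given DMSO. The WT mice were C57BL/6 females of 8 to 12 weeks, and at 24 h before death they had received 10 µg/kg TCDD in corn oil, or DMSO in corn oil, into the peritoneum. CD4 T cells were sorted from the spleen by flow cytometry, and each array carried amplified RNA pooled from 4 animals, so 1 array stands for 1 pool and the 2 arrays of a group are the only measure of its spread. The other 4 arrays came from mice labelled as lacking the aryl hydrocarbon receptor (AHR ko, backcrossed to C57BL/6, called KO here). These mice were also 8 to 12 weeks old and had the same 2 treatments, with 2 arrays each. The KO arrays shared the estimate of the spread with the WT arrays, and their own TCDD difference is given beside the WT one. The question was which transcripts of CD4 T cells differed a day after the dose. The submitters' design text calls the effect of TCDD on WT mice marginal, with about 10 transcripts affected, by a criterion not given in the sources used here.

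TCDD is a dioxin and a long-lived, high-affinity ligand of the aryl hydrocarbon receptor (AhR). Without ligand the receptor sits in the cytosol with the chaperone HSP90 and partner proteins. With ligand it enters the nucleus, pairs with ARNT and binds DNA at xenobiotic response elements, whose core letters are GCGTG. The classical targets are the cytochrome P450 genes Cyp1a1, Cyp1a2 and Cyp1b1, the receptor's own repressor Ahrr, the ADP-ribosyltransferase Tiparp and the quinone reductase Nqo1. In the CD4 lineage the receptor is best known for its high level in Th17 cells and its part in regulatory T cell responses, and resting cells hold less of it.

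The bases before the annotated start of 3 of these target genes are shown because the comparison turns on whether the targets differed, and those of Hspa1a because it had the lowest difference of all probe sets. The sequences are those of RefSeq, build GRCm38.p6, 5′ to 3′ on the strand of the gene and 250 bases each. Cyp1a1 lies at chr9:57697363-57697612 on the plus strand, Ahrr at chr13:74292332-74292581 on the minus strand, Tiparp at chr3:65528197-65528446 on the plus strand and Hspa1a at chr17:34972157-34972406 on the minus strand. Capitals mark GCGTG, read on either strand, in the first 3 windows, and the heat shock element letters GAANNTTC in the window of Hspa1a.
Cyp1a1: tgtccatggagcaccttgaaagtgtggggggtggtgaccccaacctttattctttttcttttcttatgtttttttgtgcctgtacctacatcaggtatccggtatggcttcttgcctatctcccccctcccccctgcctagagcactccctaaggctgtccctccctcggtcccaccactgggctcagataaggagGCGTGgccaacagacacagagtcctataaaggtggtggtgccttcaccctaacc
Ahrr: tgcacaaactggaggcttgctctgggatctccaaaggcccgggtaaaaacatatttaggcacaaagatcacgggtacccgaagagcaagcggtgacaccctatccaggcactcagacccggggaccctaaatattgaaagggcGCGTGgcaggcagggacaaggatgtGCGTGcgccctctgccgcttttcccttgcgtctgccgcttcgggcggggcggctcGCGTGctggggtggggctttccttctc
Tiparp: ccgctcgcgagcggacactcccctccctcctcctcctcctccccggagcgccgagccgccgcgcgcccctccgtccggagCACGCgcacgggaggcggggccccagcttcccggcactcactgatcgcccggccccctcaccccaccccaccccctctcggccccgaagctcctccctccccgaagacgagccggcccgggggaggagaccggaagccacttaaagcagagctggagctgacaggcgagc
Hspa1a: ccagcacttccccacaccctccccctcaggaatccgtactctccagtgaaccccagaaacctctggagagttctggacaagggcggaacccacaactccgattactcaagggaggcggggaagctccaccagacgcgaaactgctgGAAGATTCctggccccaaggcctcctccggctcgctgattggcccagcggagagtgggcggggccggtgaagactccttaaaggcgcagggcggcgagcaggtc
The Ahrr window held 3 matches to GCGTG, and the Cyp1a1 and Tiparp windows held 1 each. Among 32851 RefSeq windows of this length, 28.2% held at least 1 match and 2.77% held 3 or more. Cyp1b1 and Scin had 1 match, Selenbp1 had 2, and the letters were not found in the windows of Cyp1a2 and Nqo1. GAANNTTC was in 6.69% of all windows, and the Hspa1b window differed from that of Hspa1a at 3 of 250 bases and held the same match. A match describes these letters and does not show that a factor bound there.

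The values were log2 expression values of 22626 probe sets, each a group of short probes against 1 stretch of transcript, with array medians between 6.08 and 6.15 on the WT and KO arrays. The T cell label was checked first. Cd3e, a chain of the T cell receptor complex, read 9.64 and 9.55 on the TCDD arrays 1 and 2 and 9.46 on both DMSO arrays, and Cd4 read 8.73 and 8.44 against 8.18 and 8.11. The CD8 chain Cd8a stayed between 5.71 and 5.87 and the B cell gene Cd79a between 5.61 and 5.73 on the 4 WT arrays, both under the median of all probe sets (6.13). Other cells' genes were not all low: the plasma cell gene Jchain read 7.94 and 9.02 after TCDD and 6.63 and 8.65 after DMSO, the macrophage lysozyme Lyz2 reached 7.98, and the natural killer receptor Klrd1 reached 8.90. In pooled RNA, fewer cells of a type and less RNA per cell cannot be told apart. For WT TCDD 1 the labels disagree: its description speaks of AhR KO mice, but title, source and strain all give the wild type, and it was kept as WT. On 1 of the 3 Tiparp probe sets this array read 7.35, next to 7.42 to 7.73 on the other 3 WT arrays and 6.34 to 6.44 on the 4 KO arrays. On the dimmest it read 6.85, next to 6.72 to 6.82 and 6.17 to 6.56. The brightest did not separate the genotypes, at 8.43 to 9.63 in WT and 8.53 to 9.13 in KO.

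The WT arrays of a shared number were more alike than the 2 pools of a treatment. Between WT TCDD 2 and WT TCDD 1, 1097 probe sets were at least 1 log2 unit (2-fold) apart, and between WT DMSO 2 and WT DMSO 1, 570 were. Between TCDD and DMSO arrays of the same number the counts were 154 for number 1 and 183 for number 2, and between the 2 group means 40. The correlation over the 22626 probe sets, a description of arrays that share the same probes and normalization, was 0.988 between TCDD 1 and DMSO 1 and 0.986 between TCDD 2 and DMSO 2, above 0.967 between the TCDD arrays and 0.979 between the DMSO arrays. Where both number and treatment differed it was 0.964 between TCDD 1 and DMSO 2 and 0.978 between TCDD 2 and DMSO 1, the first under both values within a treatment and the second between them. The first principal component of the 4 WT arrays held 67% of their variance and placed both arrays numbered 1 at −38.24 and −16.26 and both numbered 2 at 24.49 and 30.01. The labels do not say what a shared number stands for.

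**Figure D1:**
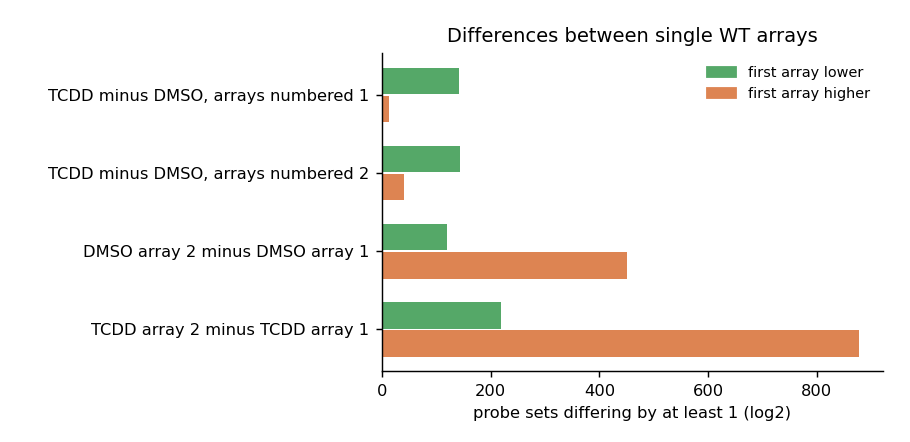
Number of probe sets (horizontal axis) whose log2 values differ by at least 1 between 2 single WT arrays, split by whether the first array named is higher or lower. The bars for TCDD against DMSO, 13 higher and 141 lower for the arrays numbered 1 and 40 and 143 for those numbered 2, are shorter than the 878 and 219 between the 2 TCDD arrays.

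RNA integrity moved with both the number and the treatment. The log2 difference between the 3′ and 5′ control probe sets of actin, which grows as RNA becomes fragmented or amplification favours 3′ ends, was 4.56 on TCDD 1, 3.70 on DMSO 1, 3.30 on TCDD 2 and 2.90 on DMSO 2, so that it was higher after TCDD within each number, with means of 3.93 and 3.30. The Gapdh controls gave 5.34, 5.06, 4.35 and 3.71 on the same arrays. The difference between TCDD and DMSO also followed the level of a probe set: with probe sets ranked by mean level into 5 equal groups, its median was 0.04 to 0.06 in the 3 dimmest groups, 0.00 in the next and −0.10 in the brightest. The part of RNA integrity in the results that follow was not tested beyond a fit that holds the actin measure as a covariate.

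No probe set passed the test of TCDD against DMSO in WT (limma, Benjamini-Hochberg (BH) adjusted p under 0.05; 0 of 22626, 0.0%), and the smallest adjusted p was 0.997. At an unadjusted p under 0.05 there were 631 probe sets (2.79%), of which 271 read higher (1.20%) and 360 lower (1.59%) after TCDD, and 5 (0.0221%) were under 0.001. Median centring of the arrays turned that split into 184 higher and 452 lower. Over all probe sets, 55.1% read higher. In KO the same test also called 0 probe sets, with 383 (1.69%) at an unadjusted p under 0.05, of which 343 (1.52%) read higher, and 1 (0.00442%) under 0.001. The difference between the WT and KO effects was tested as an interaction and called 0 probe sets as well (smallest adjusted p = 0.998; 628, 2.78%, at an unadjusted p under 0.05 and 9, 0.0398%, under 0.001). In WT, in KO and in the interaction, the share at an unadjusted p under 0.05 was below the share of 0.05 that evenly spread p-values would give. None of the differences named from here on passed, and the limma BH adjusted p of each was at least 0.997. The median standard error of a WT difference was 0.163, and on simulated data of this size and spread the fit recovered 42.4% of changes of 1 log2 unit and 1.4% of changes of 0.5. The simulated arrays varied independently, without the deviation that WT arrays of a shared number have in common, so recovery in the real data can differ. For a single probe set, 2 arrays against 2 allow 6 arrangements, so that an exact two-sided permutation test could not give a p under 0.333.

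Without an adjusted call, the plainest count is of groups that did not overlap. Both TCDD arrays lay above both DMSO arrays in 4284 probe sets (18.9%) and below both in 2435 (10.8%). A difference of at least 2-fold without overlap was seen in 3 probe sets that read higher (0.0133%), each of them for the immunoglobulin gene Igha, and in 27 that read lower (0.119%). Without WT TCDD 1, whose labels disagree, 0 probe sets were called and 154 were at least 2-fold apart without overlap, a count that compares 1 array with 2.

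The receptor and its partner differed by less than their standard errors. Ahr had 2 probe sets. The first read 6.64 and 6.46 on the TCDD arrays 1 and 2 and 6.52 and 6.31 on the DMSO arrays, a difference of 0.14 (SE 0.18), and the second read 6.29 and 6.14 against 6.29 and 6.11 (0.02, SE 0.19). The groups overlapped in both, and within each treatment the array numbered 1 was the higher. In KO the first Ahr probe set read 6.46 and 6.35 after TCDD and 6.41 and 6.86 after DMSO, and the second 6.49 and 6.79 against 7.08 and 6.60, above all 4 WT arrays. Neither was lower in KO than in WT on every array, and whether their probes lie in the disrupted part was not determined, so they do not check the KO label. The 2 Arnt probe sets differed by 0.05 and 0.06 (SE 0.12 and 0.10). Of the 12 measured genes for the receptor, its chaperones and its partners, 6 read higher and 5 lower after TCDD, with a median of 0.00 between −0.38 and 0.17. The lowest of them was Nrip1, a corepressor of nuclear receptors, at 7.03 and 7.20 after TCDD and 7.22 and 7.76 after DMSO, with overlapping groups.

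The cytochrome P450 targets differed by little. Cyp1a1, whose enzyme oxidises polycyclic hydrocarbons and whose induction is the usual readout of AhR activity, read 5.91 and 5.94 after TCDD and 5.77 and 5.82 after DMSO. The groups did not overlap, yet the difference was 0.13 (SE 0.10; a 1.09-fold ratio of TCDD to DMSO), all 4 values were under the median probe set, and the KO difference was 0.08. Cyp1a2 read 5.06 and 4.84 against 4.95 and 4.79, a difference of 0.08 (SE 0.13) with overlap. The brightest Cyp1b1 probe set read 6.45 and 5.85 against 6.13 and 5.90, a difference of 0.14 (SE 0.22) with overlap, and its other 2 probe sets differed by 0.02 and 0.04. The 95% interval of the difference ran from −0.10 to 0.36 for Cyp1a1 and from −0.38 to 0.65 for the brightest Cyp1b1 probe set. The Cyp1a1 probe set was not shown to be above background, so its interval sets no limit on the change of the transcript.

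Ahrr, which competes with the receptor for ARNT and represses it, had the largest difference among the classical targets named above. It read 5.13 and 4.70 after TCDD and 4.49 on both DMSO arrays. Its mean over the 8 arrays, 4.67, lay in the dimmest of the 5 groups by level (3.58 to 4.90). The probe set was not shown to be above background, so the interval given below sets no limit on the change of the transcript. Both TCDD arrays were above both DMSO arrays, with the higher value on WT TCDD 1. The difference was 0.42 (SE 0.17; 1.34-fold; 95% interval 0.02 to 0.83; limma unadjusted p = 0.0427, BH adjusted p = 0.997), and it was 0.21 without WT TCDD 1 and 0.64 without WT TCDD 2. In KO the values were 4.49 and 4.67 after TCDD and 4.60 and 4.79 after DMSO, a difference of −0.12. The WT effect exceeded the KO effect by 0.54 (SE 0.24; limma unadjusted p = 0.0614, BH adjusted p = 0.998).

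The Tiparp groups overlapped on each probe set, and Nqo1 differed by little. The brightest Tiparp probe set read 9.63 and 8.43 after TCDD and 9.43 and 8.57 after DMSO, so that the arrays numbered 1 were high in both groups and the difference was 0.03 (SE 0.46; 95% interval −1.09 to 1.15). Another, less bright, read 7.35 and 7.73 against 7.62 and 7.42 (0.02, SE 0.16), and the dimmest read 6.85 and 6.72 against 6.82 and 6.76. Nqo1 read 5.15 and 4.93 against 4.86 and 4.92, a difference of 0.15 (SE 0.12) that rested on WT TCDD 1, since without that array it was 0.04.

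**Figure D2:**
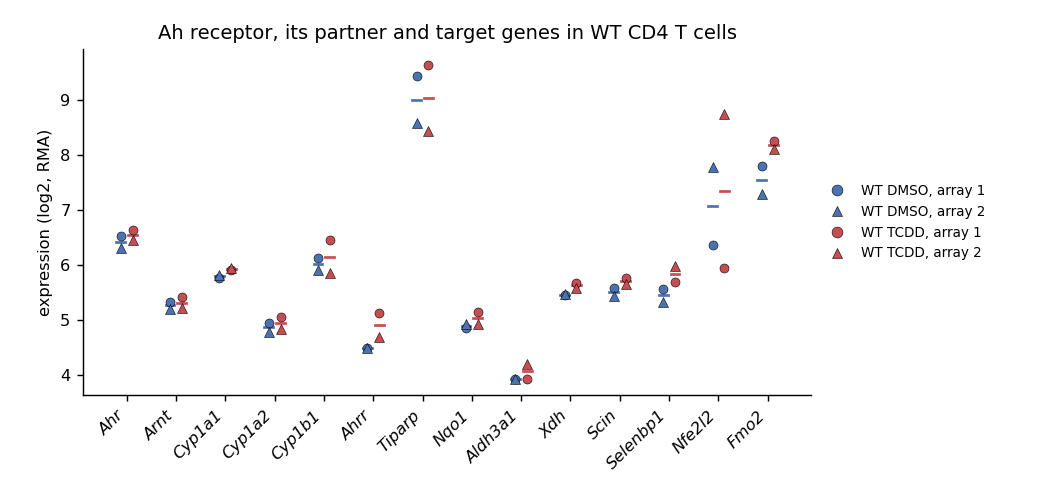
Log2 expression (vertical axis) of Ahr, Arnt and 12 AhR target genes on the WT arrays, 1 probe set per gene; blue points are the 2 DMSO arrays, red points the 2 TCDD arrays, circles arrays numbered 1, triangles arrays numbered 2, and short bars the group means. For Ahrr the TCDD points (5.13 and 4.70) lie above both DMSO points (4.49), whereas for Tiparp the points separate by number (9.63 and 9.43 against 8.43 and 8.57).

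Taken as a list of 21 targets, of which 17 were measured (1 probe set per gene, the brightest), 16 read higher after TCDD in WT and none was called. The median difference was 0.14, against 0.03 over all 12393 genes, of which 56.2% read higher. It was 0.14 within number 1 and 0.12 within number 2, and 0.02 in KO, where 10 of 17 read higher. In 8 of the 17 both TCDD arrays lay above both DMSO arrays, against 19.8% of all genes, and 2 had an unadjusted p under 0.05, against 2.99% of all genes in either direction. Only 4 of the 17 had a mean at or above the median probe set, and over all probe sets the 3 dimmest of the 5 groups by level also had medians above 0, at 0.04 to 0.06. The list was drawn up with earlier results of these data known and carries no test of its own.

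Beyond the classical targets, Selenbp1, a selenium-binding protein known to respond to AhR ligands in mouse liver, read 5.69 and 5.99 after TCDD and 5.57 and 5.33 after DMSO. The groups did not overlap, with a difference of 0.39 (SE 0.15; limma unadjusted p = 0.0339) and −0.08 in KO, on a probe set whose suffix marks probes shared with related transcripts. The other Selenbp1 probe set differed by 0.08 in WT. Scin, an actin-severing protein also known as an AhR-responsive gene, read 5.77 and 5.66 against 5.59 and 5.43 (0.20, SE 0.12), without overlap. The largest value of the list was 0.64 (SE 0.43) for the flavin monooxygenase Fmo2, at 8.25 and 8.10 against 7.79 and 7.28. Its groups did not overlap, and its KO difference was −0.86. Nfe2l2, the antioxidant regulator NRF2, ran from 5.95 on WT TCDD 1 to 8.75 on WT TCDD 2, a gap far over its difference of 0.28 (SE 0.91). Of 18 measured NRF2 and antioxidant genes, 8 read higher and 10 lower, with a median of −0.05.

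The lower side held the smaller p-values. By unadjusted p, among bright probe sets with 1 gene symbol and no overlap, the 12 leading genes that read lower differed by −1.34 to −0.57, with unadjusted p from 0.000337 to 0.00385 (limma; BH adjusted p = 0.997 for each). Abhd17a, a depalmitoylating enzyme, read 7.26 and 7.04 after TCDD and 8.04 and 7.93 after DMSO. Both TCDD arrays were low by similar amounts, and the DMSO mean was 1.78 times the TCDD mean on the linear scale. In KO the same probe set went the other way, at 9.33 on both TCDD arrays against 8.63 and 8.75, so that the difference was −0.84 in WT and 0.64 in KO. Ndufs8, a subunit of respiratory complex I, read 6.45 and 6.49 against 7.32 and 7.18 in WT (−0.78, SE 0.13), and differed by 0.52 in KO. This was its dimmest probe set: the others differed by −0.54 to 0.06 in WT, and the brightest by 0.00. Ppdpf read 8.52 and 8.69 against 9.35 and 9.24 in WT (−0.69, SE 0.12), and differed by 0.65 in KO.

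The other 9 had a range of known roles. Luc7l2, a splicing factor, read 7.81 and 8.11 after TCDD and 8.86 and 9.03 after DMSO (−0.98, SE 0.19). Malat1, a nuclear long noncoding RNA, read 7.75 and 7.74 against 8.74 and 8.77 (−1.01, SE 0.22), with little spread within either group. Pbrm1, a subunit of a chromatin remodelling complex, read 7.48 and 8.01 against 8.66 and 9.26 (−1.22, SE 0.26). The linker histone H1f2 had the widest difference of the 12, at 8.77 and 9.05 against 10.52 and 9.99 (−1.34, SE 0.29). The histone demethylase Kdm5b differed by −0.66, the RNA activator Sra1 by −0.62, the zinc transporter Slc30a6 by −0.58, the membrane protein Crim1 by −0.78 and the kinase Gsk3b by −0.57. In KO 2 of the 12 had the same sign as in WT, and the range was −0.06 to 0.65. The 7 of these genes with further probe sets had 19 of them, of which 15 read lower, against 9923 of all 22626 probe sets. The 19 differed by −1.25 to 0.16, and none had an unadjusted p under 0.05, against 2.79% of all probe sets.

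On the higher side the 12 leading genes differed by 0.36 to 0.92, with unadjusted p from 0.00209 to 0.0114 (limma; BH adjusted p = 0.997 for each). Polr2a, the largest subunit of RNA polymerase II, read 8.64 and 8.73 after TCDD and 8.12 and 8.05 after DMSO, a difference of 0.60 (SE 0.12), and 0.16 in KO. Its other probe set differed by 0.32 with overlapping groups. Ikbkb, a kinase that activates NF-κB, read 10.28 and 10.60 against 9.70 and 9.91 (0.64, SE 0.17), and its other 3 probe sets differed by −0.01 to 0.04. Tmsb10, which binds actin monomers, read 9.12 and 9.31 against 8.46 and 8.14 (0.92, SE 0.24) on a probe set whose suffix marks probes shared with other transcripts, and its bright second probe set read 12.84 and 12.70 against 12.69 and 12.42 (0.22).

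Ptpn21, a cytosolic tyrosine phosphatase, read 6.92 and 6.78 after TCDD and 6.38 and 6.25 after DMSO (0.54, SE 0.12). The secreted protease Adamts10 read 7.64 and 7.74 against 7.29 and 7.09 (0.50, SE 0.12). Prr13 differed by 0.68, the growth-associated factor Pa2g4 by 0.69, the calcium channel Itpr2 of the endoplasmic reticulum by 0.47, the ubiquitin ligase component Fbxo21 by 0.46, the potassium channel Kcnn1 by 0.42, the clathrin adaptor subunit Ap2m1 by 0.38 and the membrane-anchor transamidase subunit Pigt by 0.36. In KO 8 of the 12 had the same sign, between −0.20 and 0.52. Of 20 further probe sets for 8 of these genes, 11 read higher, against 55.1% of all probe sets. The 20 differed by −0.24 to 0.46, and none had an unadjusted p under 0.05, against 2.79% of all probe sets. Some further probe sets differed by nearly as much as the leading one with a larger standard error: −1.25 (SE 0.53; limma unadjusted p = 0.0528) for H1f2, −0.82 (SE 0.40) for Luc7l2 and 0.46 (SE 0.37) for Itpr2. Others of these genes did not: 0.15 for H1f2, −0.16 for the brightest Luc7l2 probe set and −0.10 for the brightest Itpr2 one. The only other probe set of Kdm5b differed by 0.16, and that of Fbxo21 by −0.08.

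**Figure D3:**
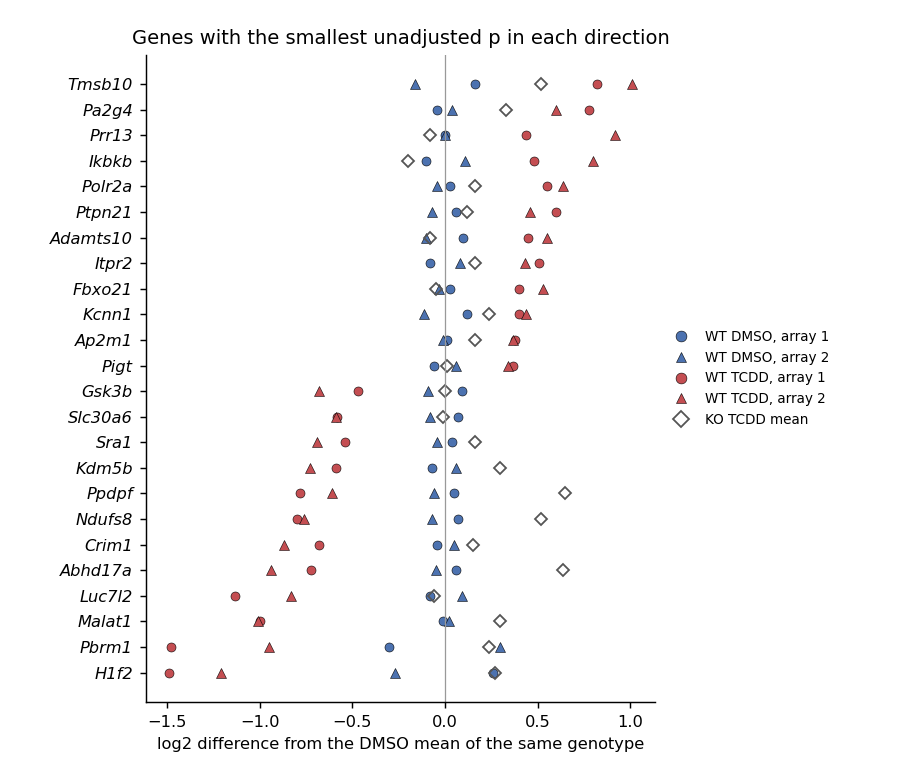
Log2 difference (horizontal axis) of each WT array from the WT DMSO mean for the 24 genes with the smallest unadjusted p in each direction, with blue for DMSO arrays, red for TCDD arrays, circles for arrays numbered 1 and triangles for arrays numbered 2; open diamonds are the KO TCDD mean against the KO DMSO mean. The red and blue points of a gene do not overlap, as the choice of genes requires, and the diamonds of Abhd17a (0.64), Ppdpf (0.65) and Ndufs8 (0.52) lie on the opposite side.

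The largest differences of all were those of the inducible heat shock genes. HSP70 proteins refold damaged proteins, and Hspa1a and Hspa1b, 2 near-identical neighbouring genes whose probes are hard to separate, are switched on by heat and other protein stress. Hspa1a read 5.94 and 6.40 after TCDD and 7.59 and 10.01 after DMSO. Both TCDD arrays were lower than both DMSO arrays, and the DMSO arrays were further apart (SD 1.71) than the TCDD arrays (SD 0.33). The difference was −2.63 (SE 0.82; a 6.19-fold ratio of DMSO to TCDD; 95% interval −4.61 to −0.65; limma unadjusted p = 0.0169, BH adjusted p = 0.997), and −1.42 without WT DMSO 2. Hspa1b read 7.90 and 9.07 against 9.83 and 12.05 (−2.46, SE 0.85), and its other 2 probe sets, whose groups overlapped, differed by −2.54 and −2.29.

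The KO group means of Hspa1a had the reverse order. It read 6.85 and 7.32 after TCDD in KO and 6.79 and 5.24 after DMSO, a difference of 1.07 (SE 0.82). The reading on WT DMSO 2, at 10.01, was above the other 7 arrays, which lay between 5.24 and 7.59. The WT and KO differences were −3.70 apart (SE 1.16; limma unadjusted p = 0.0172, BH adjusted p = 0.998). Other heat shock genes did not follow: the co-chaperone Dnajb1 read 9.68 and 10.41 after TCDD and 9.94 and 10.16 after DMSO, Hsph1 differed by 0.12 and the constitutive Hspa8 by −0.14.

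**Figure D4:**
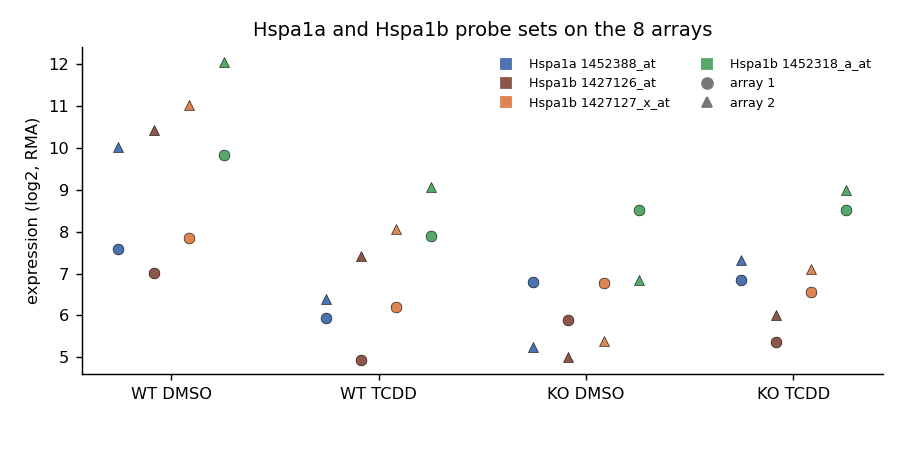
Log2 expression (vertical axis) of 1 Hspa1a and 3 Hspa1b probe sets, by colour, on all 8 arrays in 4 groups; circles are arrays numbered 1 and triangles arrays numbered 2. The triangle of WT DMSO is the highest point of each colour (10.01 for Hspa1a and 12.05 for the brightest Hspa1b probe set), and the WT TCDD points of these 2 probe sets lie under both WT DMSO points.

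The heat shock genes were listed with the immediate early genes, which answer within minutes to a stimulus. Of 21 measured, 19 read lower after TCDD, against 5297 of all 12393 genes, with a median of −0.27 (0.03 over all genes). Of these, 3 (14.3%) had an unadjusted p under 0.05 (Hspa1a, Hspa1b and Myc), against 2.99% of all genes. The median was −0.66 within number 1, 0.16 within number 2 and 0.00 in KO. Fos, a component of the AP-1 transcription factor, read 10.36 and 11.96 after TCDD and 11.65 and 12.27 after DMSO, and its partner Jun read 10.15 and 11.56 against 11.65 and 11.32. In both genes WT TCDD 1 was the lowest of the 4 arrays and the groups overlapped. Nr4a1, an early target of T cell receptor signals, read 10.20 and 9.49 against 11.36 and 9.42, with DMSO 1 high. The growth regulator Myc read 6.01 and 6.38 against 6.67 and 7.41 (−0.84, SE 0.29; limma unadjusted p = 0.0231, BH adjusted p = 0.997), without overlap.

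Of the genes not among those 24, the 4 with the largest difference on each side were taken next (bright, 1 symbol, no overlap), and the higher ones were a plasma cell transcript, a lectin and 2 genes of the actin cytoskeleton. Igha, the constant region of IgA, read 9.92 and 10.76 after TCDD and 8.16 and 9.65 after DMSO. The groups did not overlap, and the arrays numbered 2 were the higher in each group; the difference was 1.44 (SE 0.86; limma unadjusted p = 0.144). Its KO values were higher than those of WT and also split by number, at 11.52 and 13.20 after TCDD and 10.86 and 12.82 after DMSO. Jchain, which joins IgA and IgM chains in plasma cells, differed by 0.84 (SE 0.85), while of the 7 measured B and plasma cell genes 5 read higher, with a median of 0.11, and the median of their levels was 5.68 and 6.27 on the TCDD arrays and 5.77 and 6.02 on the DMSO arrays. The part of plasma cells in the Igha difference was not tested.

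Lgals3, a galactose-binding lectin of myeloid and activated cells, read 7.16 and 6.94 after TCDD and 5.44 and 6.81 after DMSO (0.92, SE 0.50), with DMSO 1 the low array. Pfn1, a regulator of actin assembly, read 9.32 and 10.26 against 8.92 and 8.88 (0.89, SE 0.31). For actin itself, the Actb probe set that read higher was at 10.36 and 9.32 against 9.25 and 8.83 (0.80, SE 0.41), and the other read 10.15 and 11.86 against 11.69 and 12.32, lower after TCDD by a 2.0-fold ratio (SE 0.54 on the log2 scale). These 2 Actb probe sets thus differed in opposite directions, on the arrays whose actin 3′ to 5′ measure ran from 2.90 to 4.56. On the lower side, after Hspa1a and Hspa1b, Resf1, a factor in the silencing of retroelements, read 6.78 and 7.38 against 8.72 and 8.94 (−1.75, SE 0.40), 0.30 in KO, and its other 2 probe sets differed by −0.36 and −0.14. The endoplasmic reticulum chaperone Hsp90b1 read 5.77 and 7.54 against 7.84 and 8.12 (−1.32, SE 0.64), and its other probe set overlapped (−0.40).

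Genes of T cell identity and receptor signalling were split. Of 19 measured, 7 read higher and 12 lower after TCDD, with a median of −0.09, and 5 (26.3%) had an unadjusted p under 0.05, against 2.99% of all genes. Cd2, an adhesion receptor, read 10.30 and 10.69 after TCDD and 11.24 and 11.17 after DMSO (−0.71, SE 0.17; KO 0.32). Cd5, an inhibitory receptor, read 9.03 and 9.12 against 10.02 and 9.57 (−0.72, SE 0.18; KO 0.28), and neither gene's groups overlapped. The receptor chains Cd247, Cd3d and Cd3e differed by −0.73, −0.38 and 0.14. Cd4 was the 1 gene of the list that read higher at an unadjusted p under 0.05, by 0.44 (SE 0.14), and its other probe set differed by −0.02. By number the median of the list was −0.30 for arrays 1 and 0.07 for arrays 2.

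Of the 14 measured genes of naive and resting T cells, 12 read lower and 2 higher, with a median of −0.16 that was −0.34 for number 1, 0.06 for number 2 and −0.16 in KO. The groups overlapped in all 14. Il7r, the receptor chain for a survival cytokine, read 11.28 and 11.63 after TCDD and 10.80 and 11.36 after DMSO (0.38, SE 0.22). Klf2, which keeps T cells quiescent, read 9.10 and 11.12 against 10.46 and 10.06, so that the TCDD arrays enclosed both DMSO arrays.

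Lists for helper and regulatory fates gave small positive medians: 0.09 for 15 regulatory T cell genes, 0.06 for 14 Th17 genes, 0.08 for 15 Th1 genes and 0.08 for 11 Th2 genes. Izumo1r, the folate receptor of regulatory T cells, read 9.07 and 9.12 after TCDD and 8.79 and 8.69 after DMSO (0.36, SE 0.10; limma unadjusted p = 0.0115; 0.12 in KO). Klrg1, an inhibitory receptor of effector cells, read 8.39 and 8.32 against 7.96 and 7.89 (0.43, SE 0.16; 0.28 in KO). Lag3, an inhibitory receptor of activated T cells, read 6.39 and 6.45 against 6.19 and 5.88 (0.38, SE 0.14). The groups did not overlap in these 3 genes. The list of effector genes linked to TCDD in T cells, which holds Lag3, had a median of 0.12 over 15 genes, with 11 higher. Ccl3, an inflammatory chemokine, read lower, at 5.85 and 6.34 against 6.60 and 7.31 (−0.86, SE 0.33).

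In the bright housekeeping lists most members read lower. Of 39 measured genes for cytosolic ribosomal proteins 31 read lower, with a median of −0.10, and in 10 both TCDD arrays were below both DMSO arrays, against 10.2% of all genes. Rps19 read 12.53 and 12.83 after TCDD and 13.30 and 13.21 after DMSO (−0.57, SE 0.13; KO 0.07), and Rplp0 differed by −0.53 (SE 0.14; KO 0.02). Of 60 genes of oxidative phosphorylation 41 read lower, with a median of −0.09 in WT and 0.19 in KO. Ndufa4 read 8.22 and 8.28 against 8.61 and 8.65 (−0.38, SE 0.13; KO 0.28), without overlap. The brightest of the 5 groups of probe sets by level had a median of −0.10 as well and nothing particular to either list was shown.

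Interferon response genes had 14 of 19 lower, with a median of −0.10 in WT and 0.17 in KO. Trim30a, an interferon-induced regulator, read 9.70 and 9.68 after TCDD and 9.99 and 10.12 after DMSO (−0.36, SE 0.13), without overlap, but its other probe set differed by 0.10. Cholesterol synthesis genes had 9 of 16 lower (median −0.07 in WT, 0.18 in KO), and Idi1, an isomerase of that pathway, read 5.96 and 5.98 against 6.38 and 6.72 (−0.58, SE 0.19). The other Idi1 probe set differed by −1.22. Clock genes had 14 of 19 higher (median 0.10), with the clock output factor Dbp lower at 8.18 and 7.78 against 8.55 and 8.38 (−0.48, SE 0.17; KO 0.55). The other Dbp probe set differed by 0.04. The medians of the remaining lists were 0.12 for 34 cell cycle genes, 0.11 for 24 apoptosis and p53 genes, 0.06 for 16 glycolysis genes, 0.01 for 15 NF-κB genes and −0.04 for 13 TGF-β and Smad genes. Marker lists of other cells had medians of 0.06 (8 CD8 T and NK cell genes), 0.06 (12 macrophage, monocyte and dendritic cell genes), 0.14 (3 red cell genes) and −0.02 (4 platelet genes). No gene of these 4 lists had an unadjusted p under 0.05, against 2.99% of all genes, a share at which lists this short would hold few such genes.

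**Figure D5:**
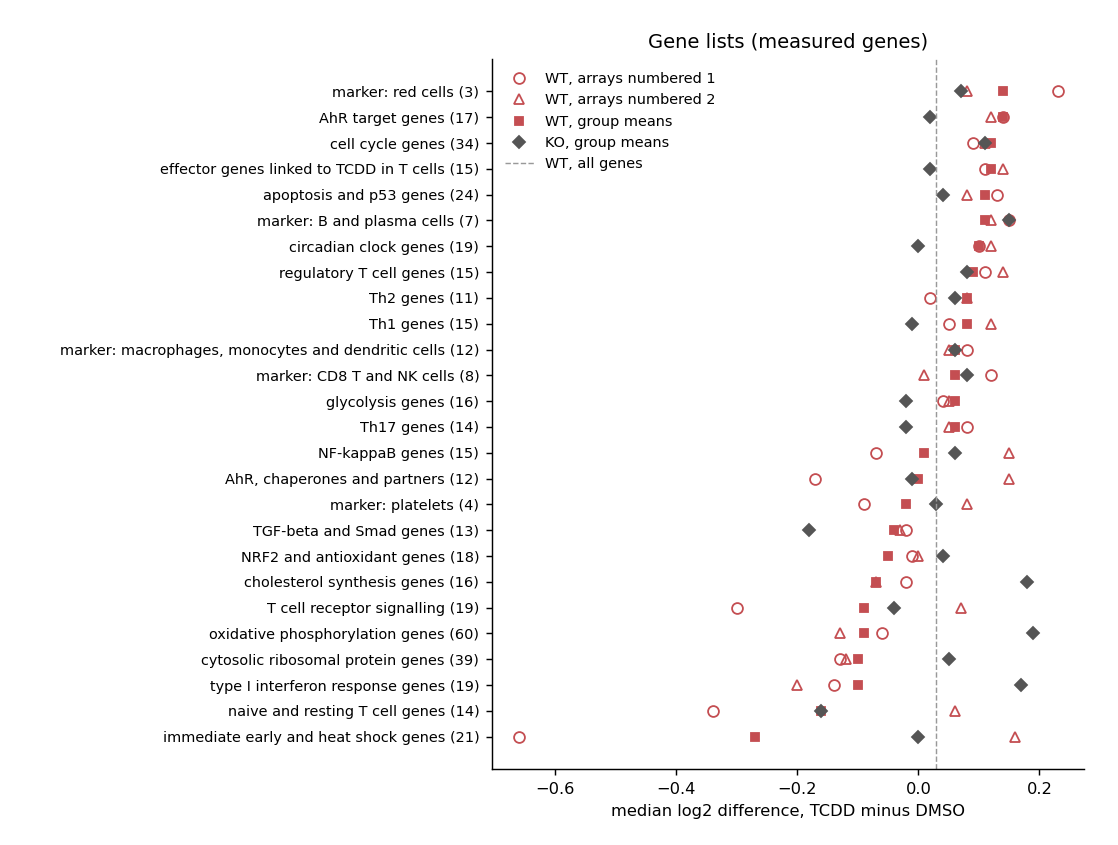
Median log2 difference of TCDD minus DMSO (horizontal axis) for 21 gene lists and 5 marker lists, with the number of measured genes in brackets; open circles and triangles are the WT arrays numbered 1 and 2, filled squares the WT group means, filled diamonds KO, and the dashed line the median of all genes in WT (0.03). The AhR target genes lie together at 0.14, 0.12 and 0.14 in WT and at 0.02 in KO, while the immediate early and heat shock genes range from −0.66 to 0.16 by number.

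The WT and KO arrays were then read side by side, 2 comparisons with no array in common. Of the 360 probe sets that read lower in WT at an unadjusted p under 0.05, 270 (75.0%) read higher in KO, against 56.8% of all probe sets, with a KO median of 0.14. Of these 360, 34 had an unadjusted p under 0.05 in KO in the opposite direction and 2 in the same. Over all probe sets, 1.52% read higher and 0.177% lower in KO at such a p. Of the 360, 279 were at or above the median level, and the brightest of the 5 groups by level had medians of −0.10 in WT and 0.06 in KO. Both comparisons also used the same estimate of the spread, so a probe set with little spread can have a small p in both. Of the 271 that read higher in WT, 168 (62.0%) read higher in KO too, 4 of them with an unadjusted p under 0.05, and 1 had such a p in the opposite direction. No test was made of these shares.

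The interaction gave its smallest p-values to genes that read lower after TCDD in WT and higher in KO. Abhd17a led with a difference between the effects of −1.48 (SE 0.17; limma unadjusted p = 9.04e-05, BH adjusted p = 0.998), followed by Ppdpf at −1.34 (SE 0.18) and Ndufs8 at −1.30 (SE 0.18). The other, brighter Ndufs8 probe sets ranged from −1.17 to −0.10. Bicd2, an adaptor of the dynein motor, read 6.64 and 6.27 after TCDD and 7.10 and 7.06 after DMSO in WT, and 7.57 and 7.73 against 6.73 and 6.86 in KO, a difference between the effects of −1.48 (SE 0.21). This Bicd2 probe set differed by −0.62 in WT, whereas the other probe sets of the gene differed by 0.06 to 0.15. In the other direction the leading genes were the phosphatase Ptpn12 (0.58, SE 0.15), Lag3 (0.73, SE 0.20), Ikbkb (0.84, SE 0.25) and Adamts10 (0.57, SE 0.17). The Ptpn12 probe set differed by 0.24 in WT, and the other probe sets of that gene by −0.39 to 0.24. Lag3 read 6.42 and 6.40 after TCDD and 6.66 and 6.85 after DMSO in KO, so that both genotypes had groups without overlap, in opposite directions. At an unadjusted p under 0.05, 97 probe sets (0.429%) had a WT effect above the KO effect and 531 (2.35%) below it, and none of the 628 passed.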

How the data were processed

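Gene expression was measured on Affymetrix MOE430A mouse arrays, from TRIzol RNA amplified with the Ambion MessageAmp kit, per the labels' protocols. The deposited values are log2 expression that the authors computed by RMA (affy), per the submitters' processing notes; versions and the scan or extraction batches are not given in the sources used here. Of 22690 probe sets, 64 controls were left out; 20380 of the 22626 tested had 1 gene symbol, 691 several and 1555 none, and 20351 were matched by Entrez identifier to RefSeq (GRCm38.p6).

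Samples were grouped by title. A model of 4 group means over 8 arrays was fitted with limma (3.58.1, R 4.3.3; lmFit, eBayes), with contrasts for TCDD in WT, in KO and their difference, and BH adjustment over all 22626 probe sets; an adjusted p under 0.05 was called. Nothing says the pools came from separate experiments beyond the word duplicates, so p-values measure the spread between pools. Precision is limited by the number of arrays. At most 2.13% of values were identical between 2 WT arrays.

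The members and gene lists were chosen with earlier results of these data known. In the lists each gene was represented by its brightest probe set. Named genes were the receptor, Arnt and classical targets, the 12 per direction with the smallest p and then, of genes not yet named, the 4 with the largest difference (1 symbol, mean at or above 6.13, groups without overlap), up to 3 per list and up to 4 per direction for the interaction. Other genes named from the lists, markers and further probe sets were chosen after their values were seen. The fit was tested on simulated data (200 of 22626 probe sets changed in each of 10 runs): 1.4%, 42.4%, 79.8% and 94% of changes of 0.5, 1, 2 and 3 log2 units were recovered for TCDD in WT, and 5.39% of calls were false. The simulated arrays varied independently, unlike the WT arrays of a shared number. Alternatives were a replicate block, WT arrays alone, quantile normalization, median centring, leaving out dim probe sets, eBayes trend and robust settings, array weights, an actin covariate, other thresholds and leaving out arrays.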

Additional observations from a re-analysis of the deposited data

How the results depend on the processing

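In each alternative run, 0 probe sets were called for TCDD in WT, TCDD in KO and their difference, also at adjusted p under 0.10 and 0.20 in WT. The count at an unadjusted p under 0.05 in WT (631) moved more: 1131 with a replicate block over 8 arrays, 1565 with a replicate block on the 4 WT arrays alone, 244 with dim probe sets left out and 1212 with the actin covariate, which gave 649 higher and 563 lower; leaving out 1 array gave 317 (without WT DMSO 2) to 1485 (without WT TCDD 2), with 926 without WT TCDD 1, 1059 without WT DMSO 1, 367 without either KO TCDD array and 1082 without either KO DMSO array. The cause was not tested, except that a lone array leaves its group's spread to the other groups. Numbers are shared by WT arrays that deviate together (r = 0.63 across probe sets, 2 pairs only), and the labels do not say that they pair the pools. Median centring gave 184 higher and 452 lower against 271 and 360. The members changed too. Of the 631 probe sets, 246 kept an unadjusted p under 0.05 in the same direction with the actin covariate. That number was 360 with the 4 WT arrays alone and 540 after median centring. The count at least 2-fold without overlap (30) was 27 after quantile normalization, 35 after median centring, and 74 to 418 with 1 WT array left out (154 without WT TCDD 1, 347 without WT DMSO 1, 418 without WT TCDD 2, 74 without WT DMSO 2).

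Of 14 probe sets of the receptor, Arnt and classical targets, 7 changed sign somewhere. The Ahr probe set with the difference of 0.02 was −0.01 after quantile normalization, −0.02 after median centring, −0.07 with the actin covariate and −0.08 to 0.10 with 1 array left out. The Arnt probe set at 0.05 was −0.05 with the actin covariate and −0.06 to 0.16 with 1 array left out; Cyp1a2 was −0.04 and −0.03 to 0.19. The brightest Cyp1b1 probe set was −0.12 with the actin covariate, −0.16 to 0.44 with 1 array left out and −0.05 without both WT arrays numbered 1; that at 0.02 was −0.03 after quantile normalization, −0.02 after median centring, −0.02 to 0.05 with 1 left out and −0.03 without both numbered 2. The brightest Tiparp probe set was −0.56 with the actin covariate, −0.57 to 0.63 with 1 left out and −0.14 without both numbered 1; the less bright one at 0.02 was −0.02 after median centring, −0.17 to 0.21 with 1 left out and −0.27 without both numbered 2. The 32 ranked probe sets kept their sign in 608 of 608 values. Most of this was fixed by their choice: with groups without overlap, leaving out WT arrays cannot reverse a sign. Leaving out KO arrays does not change the WT difference at all. Of 520 list medians under alternatives 35 changed sign, in 14 lists; the AhR target median ranged from 0.10 to 0.20, and that of the immediate early and heat shock genes from −0.66 to 0.16. Ahrr ranged from 0.21 to 0.64.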
